A study of Mus musculus with 6 samples.

Results

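The clusters described here are the positions in P0 mouse brain RNA at which AGO2 chimeric eCLIP joined a member of the miR-181 family to its target. They were chosen as the target clusters to which miR-181a-5p, miR-181b-5p, miR-181c-5p or miR-181d-5p was assigned, with each coordinate counted once per library, and numbered 1666 of the 57560 target clusters of the series. The libraries came from whole brains of C57Bl/6J pups at postnatal day 0, with 1 AGO2 immunoprecipitation (IP) library from WT and 2 from *Mov10* Deletion. Per the study's methods, *Mov10* Deletion pups combine a *Mov10* allele whose floxed exons are removed by *Emx1*-Cre with a *Mov10* heterozygous mutation. The study describes depletion by this Cre in neocortical and hippocampal excitatory neurons, and reports MOV10 protein as strongly reduced in P0 brain lysates. Which cells of the whole brain keep the floxed allele was not examined here. A size-matched input accompanied each IP library and entered only through the IP over input values of the authors.

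In chimeric eCLIP, AGO2 is crosslinked to RNA and immunoprecipitated, and the miRNA held by AGO2 is ligated to the RNA it sits on, so that a single read names both. AGO2 is the protein that carries a miRNA to its targets, where nucleotides 2 to 8 of the miRNA, the seed, pair with the target, usually in the 3’UTR, and lower its translation or stability. MOV10 is an RNA helicase that associates with AGO2. The miR-181 family is abundant in brain and lymphoid cells, where it is known for targets in synaptic receptors, apoptosis and signalling thresholds. Its mature sequences, from RefSeq on GRCm38.p6, are shown because all 4 members share a seed (nucleotides 2 to 8, in capitals), so that the target alone does not tell them apart.
miR-181a-5p: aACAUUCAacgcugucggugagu
miR-181b-5p: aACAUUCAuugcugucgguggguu
miR-181c-5p: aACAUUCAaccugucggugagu
miR-181d-5p: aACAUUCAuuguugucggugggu
Counted from the 5’ end and with the miR-181a base first, miR-181b differs from miR-181a by A9U, C10U and A21G, and miR-181d by A9U, C10U, C12U and A21G. miR-181c equals miR-181a with 1 nucleotide left out after the first 10. miR-181b and miR-181d differ from each other only by C12U over the length they share, and miR-181b runs 1 nucleotide longer (24 against 23). The target of this seed is the 7-nt sequence TGAATGT.

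The WT list held 447 miR-181 clusters of 18029 target clusters, replicate 1 of *Mov10* Deletion held 858 of 27152, and replicate 2 held 361 of 12379. miR-181 thus made up 2.48% of the target clusters in WT (exact 95% interval 2.26 to 2.72), 3.16% in replicate 1 of *Mov10* Deletion (2.96 to 3.37) and 2.92% in replicate 2 (2.63 to 3.23). The share was lower in WT than in replicate 1 beyond counting error, and the intervals of WT and replicate 2 overlapped. Among clusters assigned to a single miRNA family they did not, with 1.92% in WT (1.72 to 2.15) and 2.7% in replicate 2 (2.42 to 3.01). The miRNA with the most target clusters, miR-124-3p, took 51.7% of target clusters in WT and 39.2% and 40.1% in *Mov10* Deletion. Since WT had 1 library, the genotypes were not tested against each other, a difference between genotypes cannot be told apart from one between libraries, and all intervals cover counting error only. The total depth of each library is unknown, and in whole brain fewer cells of a type and less RNA per cell cannot be told apart.

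Some facts of the libraries bear on every value that follows. The *Mov10* Deletion replicates share cluster boundaries: 71 of the 361 miR-181 clusters of replicate 2 met a miR-181 cluster of replicate 1, and all 71 had identical coordinates, while 0 were identical to a WT cluster. Their positions are therefore not independent of each other. AGO2 cluster counts of the replicates were also equal on most markers listed next. On *Map2* they were 241 in each against 136 in WT, and on *Rbfox3* 681 in each against 296. On *Tubb3* they were 26 and 27 against 20. Equal numbers of AGO2 clusters in the 2 replicates may thus not be separate observations. The deleted gene, *Mov10*, held 11 AGO2 clusters in WT and 9 in each *Mov10* Deletion library, but no target cluster in any of the 3 libraries, and such clusters in a whole brain do not measure its loss. The 6 neuronal markers (*Tubb3*, *Dcx*, *Map2*, *Snap25*, *Stmn2* and *Rbfox3*) held 80, 94 and 52 target clusters in WT and replicates 1 and 2 of *Mov10* Deletion. The 5 markers of radial glia and astrocytes held 7, 7 and 4, and the 3 markers of skeletal muscle held 1, 0 and 0. The liver markers *Alb* and *Apoa1* were at 0, and *Ttr*, which the choroid plexus also makes, held all 3 target clusters of the liver list in each library. The erythroid list held 2, 3 and 0, all on the globin genes *Hbb-bt* and *Hba-a1*. Blood in the tissue was not tested for its part in the results on miR-181. No gene of the liver, erythroid or muscle lists held a miR-181 cluster. Clusters were wider in WT. The median width of miR-181 clusters was 84 nt in WT, 66 nt in replicate 1 and 68 nt in replicate 2. Over all target clusters it was 78, 66 and 68 nt. A wider cluster can meet a gene end, an AGO2 cluster, a seed match or another cluster more easily. The part of width in the differences between WT and *Mov10* Deletion was not tested.

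miR-181a was the member listed most often in every library, but its lead was larger in WT. Within the family, miR-181a-5p was listed on 362 of 447 clusters in WT (81.0%, 77.0 to 84.5), on 539 of 858 in replicate 1 of *Mov10* Deletion (62.8%, 59.5 to 66.1) and on 219 of 361 in replicate 2 (60.7%, 55.4 to 65.7). Both *Mov10* Deletion libraries thus lay below WT with intervals that did not overlap it, and the same order held among clusters to which only miR-181 was assigned (79.0%, 60.4% and 58.9%). miR-181b-5p was listed on 61, 142 and 58 clusters, miR-181c-5p on 60, 122 and 41, and miR-181d-5p on 46, 108 and 59. Counted over all target clusters, miR-181a-5p took nearly equal shares (2.01%, 1.99% and 1.77%), whereas miR-181b-5p took 0.338% in WT against 0.523% and 0.469%, and miR-181d-5p took 0.255% against 0.398% and 0.477%. For miR-181b the interval of WT (0.259 to 0.434) lay below that of replicate 1 (0.441 to 0.616) and overlapped that of replicate 2 (0.356 to 0.605). For miR-181d the interval of WT (0.187 to 0.340) did not overlap that of replicate 2 (0.363 to 0.614) but did overlap that of replicate 1 (0.326 to 0.480). For miR-181c, WT (0.333%) and replicate 2 (0.331%) were alike and replicate 1 was at 0.449%. The share of miR-181a among all target clusters overlapped between the 3 libraries.

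**Figure D1:**
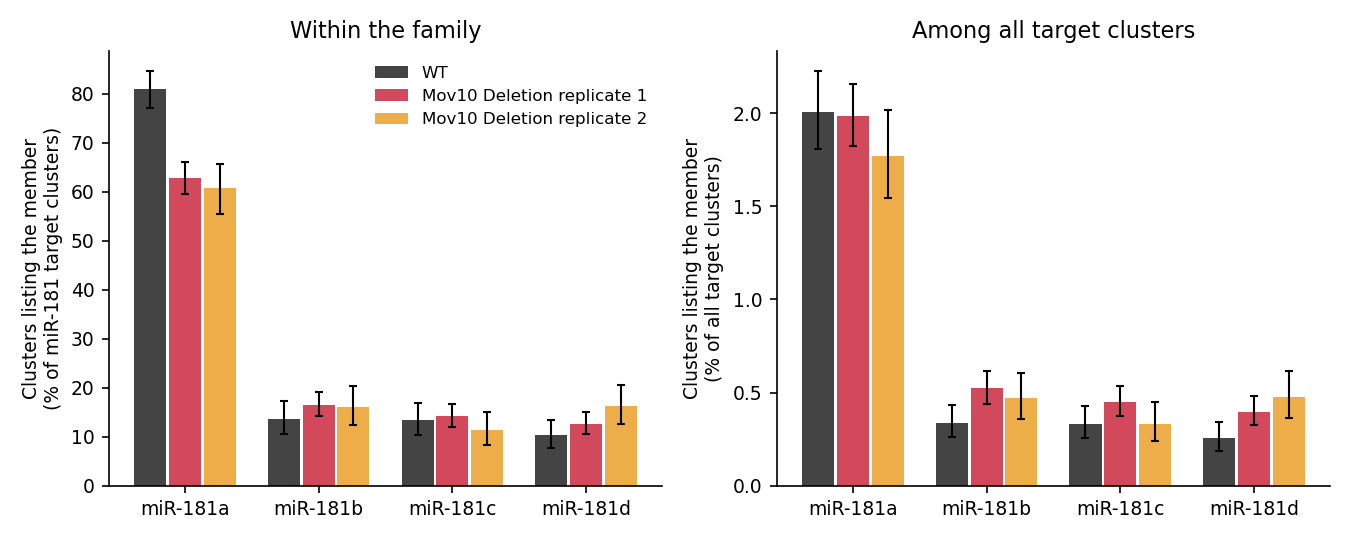
Share of target clusters that list each miR-181 member, in percent of the miR-181 target clusters (left) and of all target clusters (right) of WT (grey), replicate 1 of *Mov10* Deletion (red) and replicate 2 (yellow), with exact 95% intervals. miR-181a falls from 81.0% of the family in WT to 62.8% and 60.7%, while its share of all target clusters stays between 1.77% and 2.01%.

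Clusters that listed several members were more frequent in WT. They numbered 61 of 447 in WT (13.6%, 10.6 to 17.2), 44 of 858 in replicate 1 of *Mov10* Deletion (5.13%, 3.75 to 6.82) and 13 of 361 in replicate 2 (3.6%, 1.93 to 6.08). Clusters that also listed a miRNA outside the family followed the same order, with 30.6%, 14.1% and 11.6%. The order was not particular to miR-181. Over all miRNAs, WT held 22074 assignments of a miRNA on 18029 target clusters, replicate 1 held 30526 on 27152 and replicate 2 held 13468 on 12379. Assignments per cluster were thus highest in WT and lowest in replicate 2 in the lists as a whole. All 4 members were listed together on 3 clusters in WT, 2 in replicate 1 and 1 in replicate 2. The score deposited with each cluster, whose definition the study's text does not give and which was at least 3, had a median of 4 in each library and reached 53.2 in WT, 55.4 in replicate 1 and 30.6 in replicate 2. Strength refers here and below to this score only. The strongest clusters were those of miR-181a: at a score of 10 or more it was listed on 41 of 42 clusters in WT, 43 of 49 in replicate 1 and 11 of 12 in replicate 2. At scores of 5 or more its share was 94.5% in WT, 64.3% in replicate 1 and 73.7% in replicate 2, so WT also had the highest share among clusters of higher score.

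AGO2 clusters lay over the precursor hairpins examined in all libraries, and the hairpin of *Mir181c* was not analysed here. *Mir181a-1*, on chr1:137966455-137966541 of mm10, carried 4 AGO2 clusters in each library, all of them enriched over input, with a best log2 IP over input of 6.33 in WT, 6.93 in replicate 1 of *Mov10* Deletion and 6.90 in replicate 2. Throughout, enriched means that the deposited log2 of IP over input and the deposited −log10 p both reached 3. *Mir181b-2* carried 2 enriched clusters in each library (best log2 5.54, 5.12 and 5.95). *Mir181d* carried 1 enriched cluster in WT and 2 in each *Mov10* Deletion library (3.48, 5.26 and 6.58). *Mir181a-2* had none enriched in WT (best log2 2.66) and 2 in each *Mov10* Deletion library (5.71 and 5.42). *Mir181b-1* had none enriched in any library (best log2 2.93, 2.80 and 4.06, the last with a −log10 p of 2.93). The best values of *Mir181d* and *Mir181a-2* were thus lower in WT, while those of *Mir181a-1* and *Mir181b-2* lay close together. *Mir181a-1* and *Mir181a-2* give the same miR-181a-5p, and *Mir181b-1* and *Mir181b-2* the same miR-181b-5p. How reads of the mature miRNA were divided between such copies was not examined.

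Nearly all miR-181 clusters lay in a gene on its sense strand, 441 of 447 in WT, 842 of 858 in replicate 1 of *Mov10* Deletion and 355 of 361 in replicate 2. The last 1000 nt of a gene, where much of the 3’UTR of many genes lies, held 126 clusters in WT (28.2%, 24.1 to 32.6), 158 in replicate 1 (18.4%, 15.9 to 21.2) and 61 in replicate 2 (16.9%, 13.2 to 21.2). Among all target clusters these shares were 17.9%, 13.4% and 14.7%, so miR-181 clusters lay near gene ends more often than target clusters did in general in WT and replicate 1, beyond counting error, while in replicate 2 the interval of miR-181 held the general share. The clusters of miR-124-3p (18.0%, 14.8% and 16.4%), miR-9-5p (16.1%, 13.1% and 14.4%) and let-7 with miR-98 (14.9%, 11.4% and 13.8%) were closer to the general share. Of these families, miR-181 had the widest gap between WT and *Mov10* Deletion in this share, from 28.2% to 18.4% and 16.9%.

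AGO2 enrichment showed a similar order. A miR-181 cluster lay on an enriched AGO2 cluster of its library in 86 cases in WT (19.2%, 15.7 to 23.2), 100 in replicate 1 of *Mov10* Deletion (11.7%, 9.58 to 14.0) and 32 in replicate 2 (8.86%, 6.14 to 12.3). The background over all target clusters was 15% in WT, 11.7% in replicate 1 and 12% in replicate 2. The share of miR-181 exceeded its background in WT, equalled it in replicate 1, and in replicate 2 its interval held the background. The excess in WT was not particular to miR-181. There, let-7 with miR-98 was at 26.9%, miR-124-3p at 16.7% and miR-9-5p at 16.7%, each with an interval above the background. In replicates 1 and 2, let-7 with miR-98 was lower than in WT, at 16.6% and 16.7%. The shares were 15.6% and 15.9% for miR-124-3p, and 13.6% and 16.5% for miR-9-5p. Among miR-181 clusters, position went with enrichment. In the last 1000 nt the share was 29.4% in WT, 28.5% in replicate 1 and 18.0% in replicate 2, and elsewhere it was 15.3%, 7.86% and 7%. The same split by position is not given here for all target clusters, so it is not shown to be particular to miR-181. Near gene ends WT and replicate 1 were alike, and outside the last 1000 nt their intervals did not overlap (11.5 to 19.7 against 5.97 to 10.1). Any AGO2 cluster, enriched or not, was met by 72.0% of miR-181 clusters in WT, 47.0% in replicate 1 and 48.2% in replicate 2, beside 68.8%, 50.2% and 53.6% of all target clusters. Among clusters with a score of at least 5, the intervals of WT and *Mov10* Deletion overlapped for the share near gene ends and for that on enriched AGO2.

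**Figure D2:**
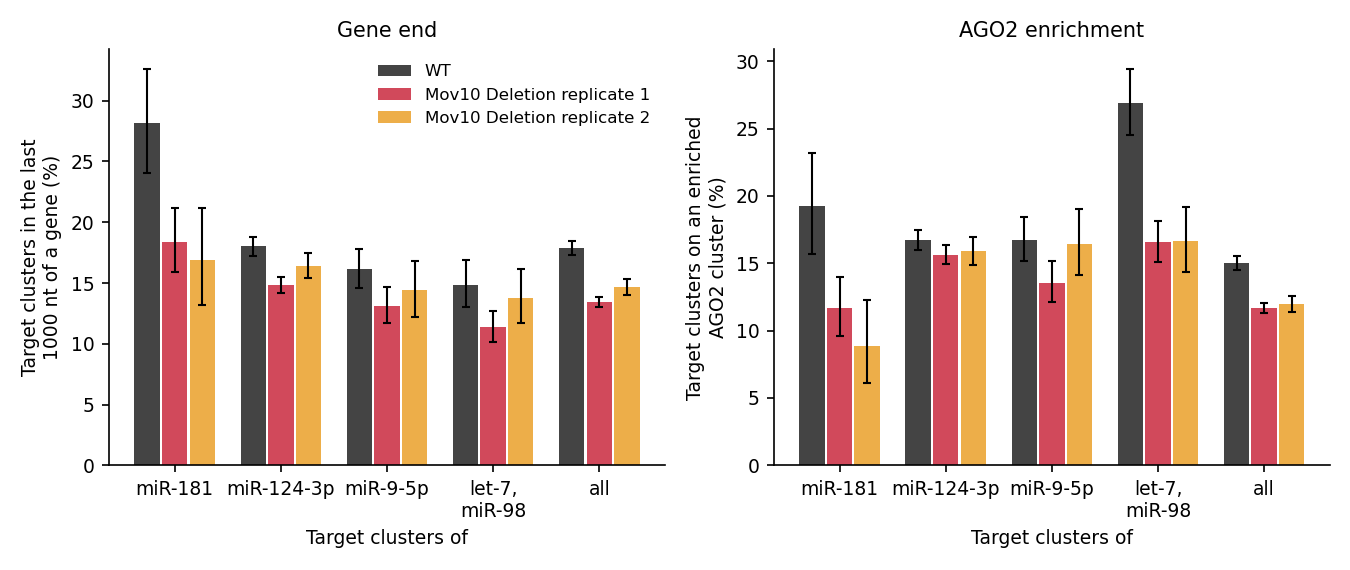
Share of target clusters (percent, exact 95% intervals) in the last 1000 nt of a gene (left) and on an AGO2 cluster with log2 and −log10 p of at least 3 (right), for miR-181, miR-124-3p, miR-9-5p, let-7 with miR-98 and all target clusters of each library. The miR-181 clusters of WT reach 28.2% at gene ends, above every other bar, and those of *Mov10* Deletion replicate 2 are lowest in AGO2 enrichment at 8.86%.

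To ask whether the target genes carry the miR-181 seed match, the 3’UTRs of their GRCm39 transcripts (GENCODE vM39) were searched for TGAATGT on the transcript strand. It was found in 247 of 395 protein-coding target genes in WT (62.5%, 57.6 to 67.3), 356 of 688 in replicate 1 of *Mov10* Deletion (51.7%, 47.9 to 55.5) and 151 of 321 in replicate 2 (47.0%, 41.5 to 52.7). Over all genes with a target cluster of any miRNA the share was 34.9%, 33.7% and 36.4%, and over all 19113 protein-coding genes with a 3’UTR it was 23.2%. Target genes of miR-124-3p held the miR-181 match in 36.3%, 36.4% and 38.0%, those of miR-9-5p in 41.0%, 39.5% and 43.4%, and those of let-7 with miR-98 in 38.1%, 39.2% and 37.9%. The miR-181 genes had the highest share in each library. Other groups also had intervals above the general share, namely miR-9-5p genes in each library, let-7 with miR-98 genes in WT and replicate 1, and miR-124-3p genes in replicate 1. In turn, the miR-181 genes held the matches to the seeds of miR-9 (ACCAAAG; 31.1%, 28.8% and 25.5%) and let-7 (CTACCTC; 19.2%, 18.0% and 20.9%) at shares near those of all target genes (26.7%, 26.0% and 26.9% for miR-9, and 20.1%, 19.7% and 20.2% for let-7). In the coding sequence TGAATGT was found in 25.3%, 25.3% and 23.7% of miR-181 target genes, beside 15.9%, 15.8% and 16.4% of all target genes.

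The 3’UTRs of the miR-181 target genes were longer, with a median of 3060 nt in WT against 2516 nt for all target genes, so the comparison was repeated within classes of length. For 3’UTRs of 1000 to under 3000 nt the match was held by 51.6% of miR-181 genes in WT, 43.9% in replicate 1 of *Mov10* Deletion and 30.5% in replicate 2, beside 28%, 27.9% and 29.7% of all target genes. For those of 3000 nt or more it was held by 78.0%, 67.2% and 65.6%, beside 52.9%, 51.9% and 53.7%. For 3’UTRs under 1000 nt it was held by 26.3% (13.4 to 43.1), 12% (5.64 to 21.6) and 14.8% (4.19 to 33.7), beside 8.43%, 8.28% and 8.53%. The share of miR-181 genes was thus higher beyond counting error in all 3 classes in WT, in the middle and long classes in replicate 1, and in the long class in replicate 2, where the interval of the middle class (22.8 to 39.2) held the general share. Among genes whose clusters listed a single member, the match was held for miR-181a by 64.9% of 279 genes in WT, 50% of 408 in replicate 1 and 52.8% of 180 in replicate 2, and for miR-181b by 50% of 28, 49.6% of 117 and 22.2% of 63. The 2 members were thus alike in replicate 1, overlapped in WT and stood apart in replicate 2 (45.2 to 60.2 against 12.7 to 34.5). For miR-181c the shares were 58.3% of 24, 55.7% of 97 and 30.2% of 53, and for miR-181d 47.6% of 21, 48.1% of 79 and 50% of 50.

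The match was also looked for at the clusters themselves. The genome sequence of mm10 was not used here, so the distance of each cluster from the end of its RefSeq gene on mm10 was compared with the distance of each exonic match from the end of its GENCODE transcript on GRCm39, with 20 nt of slack. Of the miR-181 clusters in the last 1000 nt of a protein-coding gene, 45 of 109 in WT (41.3%, 31.9 to 51.1), 41 of 144 in replicate 1 of *Mov10* Deletion (28.5%, 21.3 to 36.6) and 13 of 52 in replicate 2 (25%, 14.0 to 38.9) had a miR-181 match at their distance. The same miR-181 clusters had a miR-9 match in 3, 6 and 0 cases and a let-7 match in 1, 1 and 0, where 0 of 52, at a limit of 3 counts, allows a share of up to 5.77% (exact upper bound 6.85%). Clusters of miR-124-3p had a miR-181 match in 4.42%, 3.75% and 4.66%, those of miR-9-5p in 5.10%, 2.98% and 6.19%, and those of let-7 with miR-98 in 4.49%, 1.64% and 0.847%. The miR-181 match was therefore several times more frequent at miR-181 clusters than at those of the other families in each library.

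**Figure D3:**
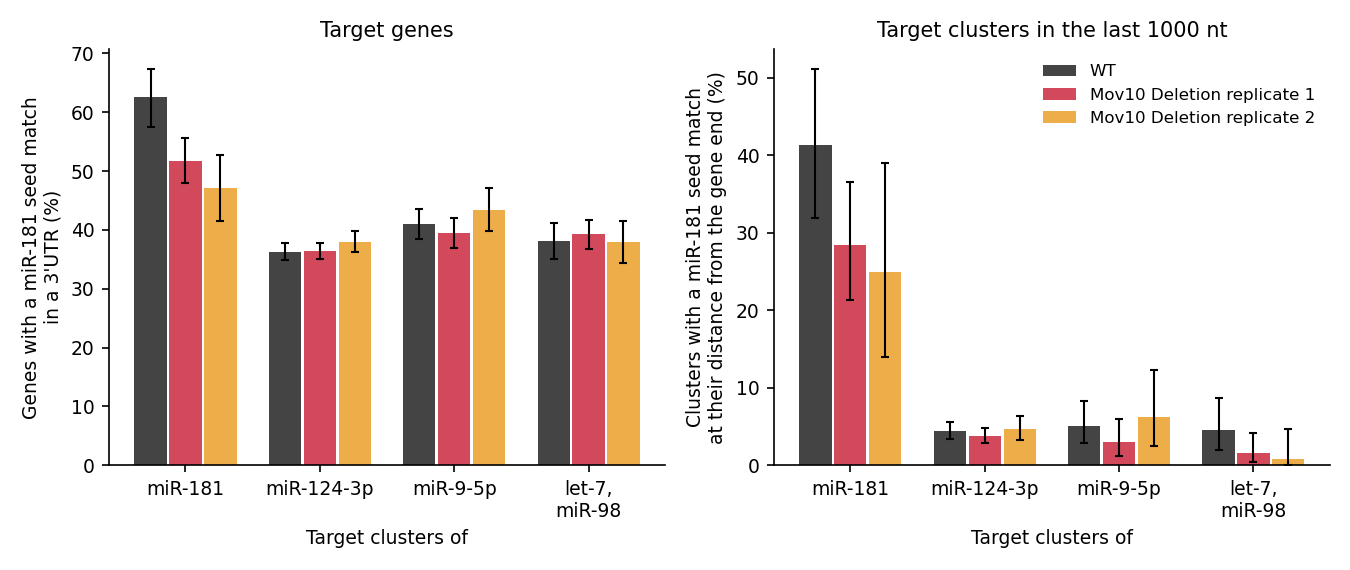
Share of target genes with TGAATGT in a 3’UTR (left) and of target clusters in the last 1000 nt of a gene with TGAATGT at their distance from the gene end (right), for 4 miRNA groups and 3 libraries, with exact 95% intervals. The miR-181 bars, at 62.5%, 51.7% and 47.0% of genes and at 41.3%, 28.5% and 25% of clusters, are the highest in both panels.

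Recurrence of miR-181 clusters between genotypes rose with the deposited score. Recurrence by score is not given here for all target clusters or for other families. The 12 WT clusters on *Rn18s-rs5*, an 18S rRNA-related sequence, were each counted. Of the WT miR-181 clusters, 167 of 447 (37.4%, 32.9 to 42.0) met a miR-181 cluster of either *Mov10* Deletion library, beside 46.9% for miR-124-3p, 41.7% for miR-9-5p and 44.6% for let-7 with miR-98 treated in the same way. Replicate 1 carried most of this, since 34.2% met a cluster of replicate 1 and 16.6% one of replicate 2. By score, 41 of 198 recurred at a score of 3 to under 4 (20.7%), 20 of 84 at 4 to under 5 (23.8%), 67 of 123 at 5 to under 10 (54.5%) and 39 of 42 at 10 or more (92.9%, 80.5 to 98.5). In the other direction, 18.1% of the clusters of replicate 1 and 19.9% of those of replicate 2 met a WT miR-181 cluster, and at a score of 10 or more 28 of 49 (57.1%, 42.2 to 71.2) and 11 of 12 (91.7%, 61.5 to 99.8) did. At this score, clusters of replicate 1 thus lacked a counterpart in WT more often than clusters of WT lacked one in *Mov10* Deletion. WT was set against 2 libraries, however, and each of the others against 1. Joined across libraries, the clusters formed 1416 separate loci, of which 54 were seen in all 3 libraries, 91 in WT and replicate 1, 13 in WT and replicate 2, 14 in both *Mov10* Deletion libraries, and 280, 689 and 275 in WT, replicate 1 or replicate 2 only. A locus in both *Mov10* Deletion libraries was in WT as well in 54 of the 68 cases. Counts of loci are not given here for all target clusters or for other families.

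**Figure D4:**
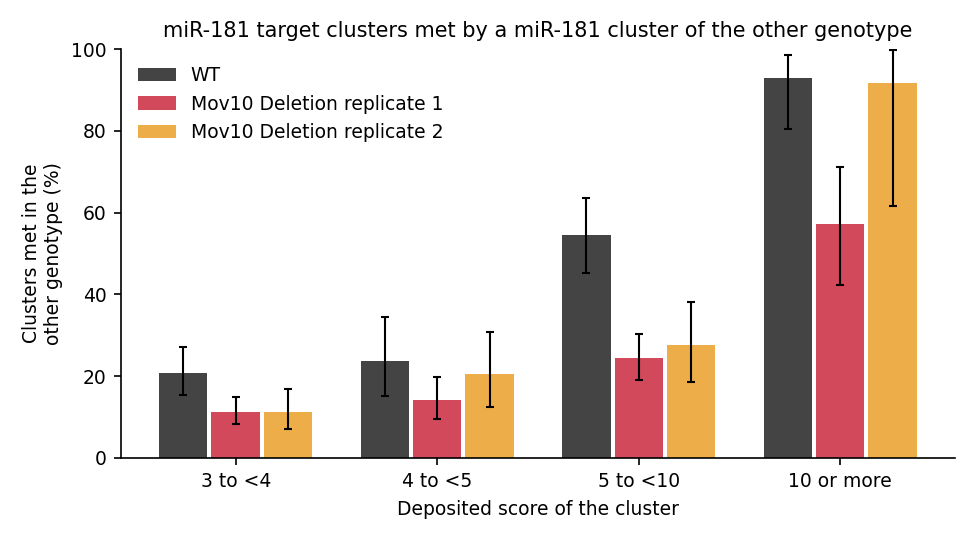
Share of miR-181 target clusters (percent, exact 95% intervals) that met a miR-181 target cluster of the other genotype, by the deposited score of the cluster. WT clusters were compared with either *Mov10* Deletion library and each *Mov10* Deletion library with WT, and the share in WT rises from 20.7% in the lowest class to 92.9% in the highest.

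miR-181 clusters fell in 421 genes in WT, which is 6.59% of the genes with any target cluster there, in 720 in replicate 1 of *Mov10* Deletion (9.28%) and in 344 in replicate 2 (6.35%). Of the 1148 genes in any library, 71 were found in all 3, and 50 of those had a locus common to the 3 libraries. Without replicate 2, the smallest list, 196 genes were common to WT and replicate 1. WT alone had 200 genes, replicate 1 alone 479 and replicate 2 alone 203, and both *Mov10* Deletion libraries without WT had 45. The 45 had to be in both lists, and the 200 in a single list. The same counts over all genes with a target cluster are not given here, so these numbers do not show a trait of miR-181 or of a genotype. The genes named next are those in all 3 libraries with the highest score in their lowest library, and 17 are named because of ties at the last rank.

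The gene with the highest value by this rule was *Grin2b*, which encodes the GluN2B subunit of the NMDA receptor. Its cluster on chr6:135730541-135730638 of mm10 scored 49.4 in WT, 45.7 in replicate 1 of *Mov10* Deletion and 30.6 in replicate 2, and listed all 4 members in WT and replicate 1 and miR-181a with miR-181c in replicate 2. AGO2 at the same place had a log2 IP over input of 2.81 in WT, just short of the threshold, and of 5.23 and 7.38 in the *Mov10* Deletion libraries. It lay 17320 to 17417 nt before the end of the gene, and the transcript has a seed match inside it. Among the other genes of the nervous system, *Rorb*, a nuclear receptor that marks layer 4 of the cortex, scored 53.2, 36.7 and 16.0, with AGO2 at 3.48, 4.15 and 3.84. *Ntrk2*, the BDNF receptor TrkB, scored 13.9, 19.8 and 7.41 at 25 to 127 nt before its end, and passed AGO2 enrichment in replicate 1 (log2 3.30) but not in WT (2.68) or replicate 2 (2.67). *Tubb3*, the neuronal beta tubulin, scored 14.3, 29.3 and 6. Its AGO2 values (2.94, 2.91 and 2.89) were nearly equal in the 3 libraries and all under the threshold. *Rbfox1*, a neuronal splicing regulator, had a cluster common to the 3 libraries that scored 18.7, 11 and 5.78. It lay 418260 to 418357 nt before the gene end. It met no AGO2 cluster in WT, an enriched one in replicate 1 (log2 3.30) and one under the threshold in replicate 2 (2.58). Each library also had further clusters of its own, scoring 3 in WT, up to 7 in replicate 1 and up to 9.69 in replicate 2. The last met no AGO2 cluster.

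Genes of transport, signalling and lipid metabolism followed. *Kif1b*, a kinesin motor that carries mitochondria and synaptic vesicle precursors, scored 28.6 in WT, 18.9 in replicate 1 of *Mov10* Deletion and 16.0 in replicate 2 at chr4:149180592-149180767, with enriched AGO2 in each (3.72, 4.97 and 4.42). *Ywhae*, the 14-3-3 epsilon adaptor, scored 8.24, 6.92 and 6, and *Fam169a* scored 26.1, 12.4 and 11.6. *Plpp3*, a lipid phosphate phosphatase, scored 14, 13.95 and 11.9. Of these, only *Kif1b* had enriched AGO2 in every library. *B4galt6*, which makes lactosylceramide, was the gene of the 17 with the lowest WT score (6.46) relative to *Mov10* Deletion (14 in both).

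Genes of RNA turnover, transcription and protein turnover made up another group. *Eya3*, a transcriptional coactivator with phosphatase activity, scored 11.9 in WT, 15 in replicate 1 of *Mov10* Deletion and 7 in replicate 2, on enriched AGO2 in each (3.91, 6.80 and 4.60). *Patl1*, a factor of mRNA decapping, scored 11, 8.61 and 7. *Cops2*, a subunit of the COP9 signalosome, scored 15, 12.8 and 6.78. The zinc finger genes *Zkscan1* (12.1, 10 and 7.94) and *Zfp260* (8.55, 6 and 8) completed it. The 7.94 of *Zkscan1* was at a place found in replicate 2 only, which scored 5.16 at the place common to the 3 libraries. Over the 17 genes, replicate 2 had the lowest score in 15 and WT the highest in 11. The genes were chosen on these same scores and replicate 2 was the smallest list, so this order is not a separate finding.

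**Figure D5:**
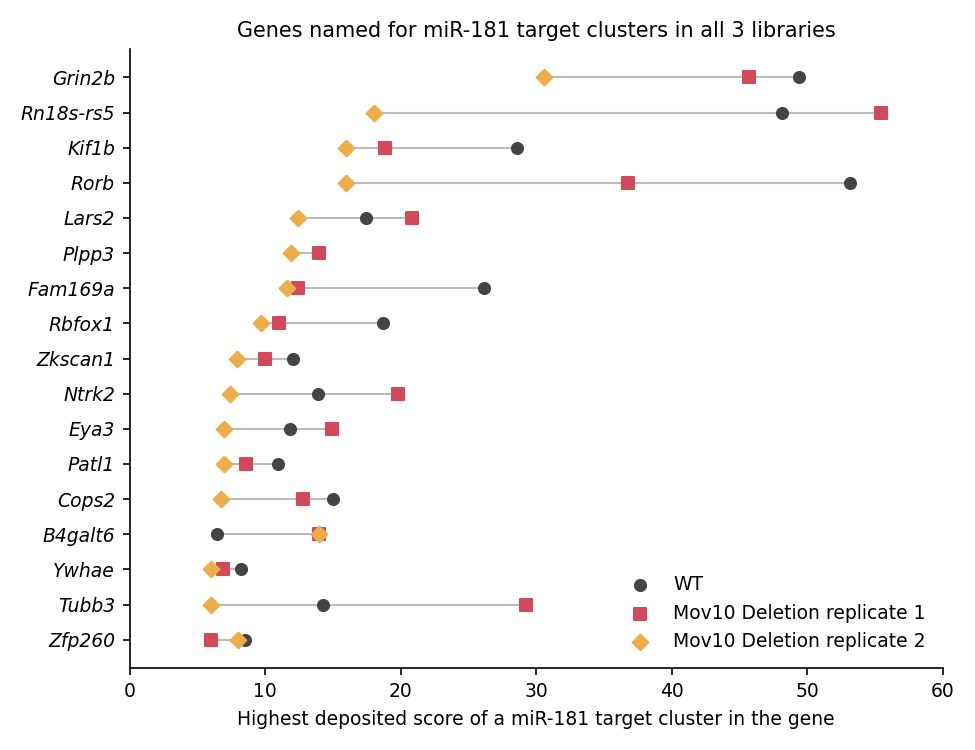
Highest deposited score (no unit) of a miR-181 target cluster in each of the 17 genes named for clusters in all 3 libraries, for WT (circles), replicate 1 of *Mov10* Deletion (squares) and replicate 2 (diamonds), with a line from the lowest to the highest. *Grin2b*, *Rorb* and *Rn18s-rs5* reach the highest scores, and *Tubb3*, *Ntrk2* and *B4galt6* are lower in WT than in replicate 1.

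A pair of the 17 stands apart from mRNA targets. *Rn18s-rs5*, an 18S rRNA-related sequence on chromosome 17, held 12 miR-181 clusters in WT, 12 in replicate 1 of *Mov10* Deletion and 9 in replicate 2, and scored up to 48.2, 55.4 and 18.0. Its strongest cluster listed 34, 31 and 23 miRNAs in all, and another listed 50, 71 and 44. The reads could come from any copy of the rRNA genes, which are repeated in the genome. The cluster of *Lars2*, the mitochondrial leucyl-tRNA synthetase, scored 17.4, 20.8 and 12.4 near the end of the gene, with AGO2 values at the level of the input (log2 0.37, -0.26 and 0.11).

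Sites of the seed match inside clusters are shown for genes named in this text, in order to let the pairing be read. Each is from GRCm39 and given 5’ to 3’ on the gene's strand, with TGAATGT in capitals, 15 nt before it and 1 nt after it. Matches lay at the cluster in 5 of the 17 genes with clusters in all 3 libraries, and for the others only the absence of these 7 letters at that distance was recorded.
Grin2b, 3’UTR, chr6:135707608-135707614, minus strand: tgtaccactcgacagTGAATGTg
Patl1, 3’UTR, chr19:11921969-11921975, plus strand: ctgttctcaccttttTGAATGTa
Cops2, 3’UTR, chr2:125673175-125673181, minus strand: atctagacagcgaagTGAATGTt
Zfp260, coding, chr7:29804578-29804584, plus strand: cggagagaaaccgttTGAATGTa
Zkscan1, coding, chr5:138099519-138099525, plus strand: aggagagaagccctaTGAATGTa
Zkscan1, coding, chr5:138099435-138099441, plus strand: tggagagaagccctaTGAATGTa
Trim2, 3’UTR, chr3:84068269-84068275, minus strand: gctatgttgttccaaTGAATGTa
Braf, 3’UTR, chr6:39586368-39586374, minus strand: gcttactgacagtttTGAATGTg
Mex3b, 3’UTR, chr7:82519902-82519908, plus strand: caagtggatccttttTGAATGTt
Mgat3, 3’UTR, chr15:80099344-80099350, plus strand: gaagagaaaccgaatTGAATGTg
The sites of *Grin2b*, *Patl1*, *Cops2* and *Zfp260* lay inside clusters of all 3 libraries, those of *Zkscan1* inside clusters of 2, that of *Trim2* inside clusters of WT and replicate 1, and the others inside a cluster of a single library. Those of *Zkscan1* also fall in the 3’UTR of another annotated transcript.

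The sites of *Zkscan1* and *Zfp260* lie in zinc finger coding sequence, and the zinc finger genes were examined as a group. Many of the proteins of Zfp genes carry rows of fingers joined by a conserved linker, so the coding sequence of those genes repeats itself. The group was taken by symbol, as Zfp followed by a digit, and not every member is of this kind. In WT 17 of the 161 Zfp genes with any target cluster held a miR-181 cluster (10.6%), in replicate 1 of *Mov10* Deletion 26 of 203 (12.8%) and in replicate 2 17 of 133 (12.8%), beside 6.59%, 9.28% and 6.35% of all such genes. No intervals are given for these shares of Zfp genes, so an excess beyond counting error is not shown. The 46 Zfp genes in any library had TGAATGT in the coding sequence in 38 cases (82.6%, 68.6 to 92.2), with a median of 4 matches and up to 16, against 95 of the 207 other Zfp genes with a target cluster (45.9%, 39.0 to 52.9). A 3’UTR held the match in 33 of the 46 genes (71.7%) and in 90 of the 207 others (43.5%). Only 10%, 10% and 11.1% of the miR-181 clusters in these genes lay in the last 1000 nt of a gene. The number of matches and the score varied separately. *Zfp37* has 12 coding matches and scored 6.84 in WT, 3 in replicate 1 and 3 in replicate 2, and *Zfp60* has 8 and scored 3, 8.85 and 4. *Zfp654*, with a score of 10.9 in replicate 1 only, has none. *Zfp975* scored 8 in replicate 2 only and *Zfp157* scored 7 in WT only. The shares above are of whole genes and do not place the matches at the clusters. The genes compared were not matched for coding length, 3’UTR length or number of fingers. By distance from the gene end, 2 of the 5 genes *Zfp654*, *Zfp60*, *Zfp260*, *Zfp975* and *Zfp157* had a match at a cluster. That of *Zfp260* was coding and that of *Zfp975* lay in the 3’UTR. The 4 Zfp genes in all 3 libraries were *Zfp60*, *Zfp260*, *Zfp37* and *Zfp68*.

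Of 28 genes described in earlier work as miR-181 targets, 7 held a miR-181 cluster in any library, and *Nova1* alone in all 3. Of the list members with any target cluster, 4 of 16 did so in WT, 2 of 16 in replicate 1 of *Mov10* Deletion and 4 of 17 in replicate 2, beside 6.59%, 9.28% and 6.35% of all genes. *Trim2*, a ubiquitin ligase of neurons, scored 7 in WT and 15.6 in replicate 1 on enriched AGO2 (log2 3.68 and 4.38) and had no miR-181 cluster in replicate 2. *Prox1*, the transcription factor of dentate granule cells, scored 3 in WT only, on AGO2 at 5.18 and 21 to 80 nt before its end. *Gria2*, the GluA2 subunit of the AMPA receptor, scored 4 in replicate 2 only, on AGO2 at 3.27. The clusters of *Nova1*, a splicing factor, scored 3, 6 and 3 and lay at different places in each library. *Mcl1*, an inhibitor of apoptosis, and *Nrf1*, a transcription factor of mitochondrial genes, each scored 3 in replicate 2.

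The glutamate receptor list had 2 of 17 genes in WT (11.8%), 3 of 18 in replicate 1 of *Mov10* Deletion (16.7%) and 4 of 17 in replicate 2 (23.5%). Here and for the lists that follow, the share over all genes with a target cluster was 6.59%, 9.28% and 6.35%. *Grm5*, the metabotropic receptor mGluR5, held a cluster common to the 3 libraries that scored 5.70 in WT, 7 in replicate 1 and 3 in replicate 2, with AGO2 at 1.96, 2.15 and 2.15, and a further cluster in replicate 1 that scored 10.4. *Grm3* scored 5 in replicate 1, and the kainate receptor *Grik2* scored 4.71 in replicate 2. They lay 201190 to 201276 and 198049 to 198070 nt before the end of their genes, and the further cluster of *Grm5* 300131 to 300207 nt. None of these met an AGO2 cluster. The part of gene length in the shares of this list was not tested. Of the RAS-ERK genes, *Braf* scored 8.69 in WT and 4 in replicate 1 at different places, *Nf1* scored 3.03 in replicate 1, and replicate 2 had 0 of 15, which at the same limit of 3 counts allows a share of up to 20%. The list of mitochondrial apoptosis and function had *Mcl1* and *Nrf1* in replicate 2 (2 of 6) and none in WT (0 of 7, which allows up to 42.9%) or replicate 1 (0 of 9, up to 33.3%). At these list sizes a difference between libraries was not detectable.

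The strongest genes of a single library scored between 9 and 14.5. In WT only, *Mex3b*, an RNA-binding protein, scored 12.8 on enriched AGO2 (log2 3.14), *Hnrnpdl* scored 12.2 with AGO2 at the level of the input (-0.09), and *Cab39*, an adaptor of the kinase LKB1, scored 9.68. In replicate 1 of *Mov10* Deletion only, *Rab36*, a small GTPase, scored 14.5, *Prkce*, protein kinase C epsilon, scored 12 with miR-181c, and *Mgat3*, a glycosyltransferase, scored 11.8 on enriched AGO2 (3.67). In replicate 2 only, *Ctnnbl1* scored 9.09, and *Esrrg*, an orphan nuclear receptor, and *Pde4dip*, a protein of the centrosome and Golgi, scored 9 each. *Mex3b* and *Mgat3* were the ones of these 9 genes on enriched AGO2. Of the genes that *Mov10* Deletion had in both replicates but WT lacked, *Pafah1b1*, the dynein regulator LIS1, held the same cluster in both, 53 to 199 nt before its end, with scores of 4.66 and 6 and AGO2 at the level of the input (0.32 and 0.00). *Ppp1r12b*, a regulatory subunit of myosin phosphatase, scored 8 and 7 and *Hmbox1* scored 6.26 and 4.62, but at different places in the 2 libraries. Both lay on enriched AGO2 in replicate 1 (log2 4.50 and 3.61) and not in replicate 2.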

How the data were processed

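AGO2 chimeric eCLIP of 3 IP libraries was analysed from the cluster lists the authors deposited. Per the methods and the submitters' processing notes, the authors used UMI-tools 1.1.1 for molecular identifiers and PCR duplicates, cutadapt 3.2 for adapters and STAR 2.7.7a for mapping to mm10, after setting aside repeat and rRNA reads, and called clusters with CLIPper. The authors deposited each AGO2 cluster with 2 values against its size-matched input, a log2 fold and a −log10 p-value. For chimeric reads, the authors matched miRNAs with Bowtie 1.2.3, mapped the remainder and deposited target clusters with a miRNA and a score, whose definition is not given in the sources used here.

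Target clusters were counted once per coordinate and library, whatever the number of miRNAs listed. Overlaps of at least 1 nt on the same strand were found with bedtools 2.31.1. Genes were RefSeq gene bodies on GRCm38.p6, the assembly of mm10, with strands from the RefSeq promoter and miRNA tables or, for 17213 genes, from GENCODE vM39 by name, which gave a strand to 45310 of 49980 genes (90.7%, and 98.0% of protein-coding genes). Those lacking one were not used, and exons and introns were not separated. Where genes overlap, each received the cluster. Seed matches were searched in GENCODE vM39 transcripts of GRCm39, and no coordinates were converted. Clusters are given on mm10 and sites on GRCm39, counted from 1. Mature miRNA sequences are those of RefSeq, which gave all 4 members.

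Depth per library is unknown. Shares have exact Clopper-Pearson 95% intervals (SciPy 1.17.1), which cover counting error only. Where a count was 0, the limit given is 3 counts of the total. With 1 WT library no test was run and no p-value computed. The overlap, counting and interval functions were tested on simulated data with known answers. The members and gene lists were chosen with earlier results of these data known. Genes were named by rule: the 15 in all 3 libraries with the highest score in their lowest library, with ties, the 3 strongest of each library alone and of both *Mov10* Deletion libraries without WT, every listed earlier target with a cluster, and up to 5 of each other list, ties by name. Some genes that this rule names, and a gene list, are not reported here. *Zfp37* and *Zfp68* were named outside this rule after their values were seen. The alternatives tried are given in the closing section. The RNA-seq of the study was not analysed here.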

Additional observations from a re-analysis of the deposited data

Results flagged for a closer look

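The report covers the 5p arms of the family. The opposite strands of the hairpins, the 3p arms, were listed on 4 target clusters in WT (0.0222% of its target clusters, exact 95% interval 0.00605 to 0.0568), on 7 in replicate 1 of *Mov10* Deletion (0.0258%, 0.0104 to 0.0531) and on 2 in replicate 2 (0.0162%, 0.00196 to 0.0584). The first pair of counts was singled out because it exceeds the limit of 3 clusters that a count of 0 allows. The highest score among these clusters was 4.69 in WT, 8.68 in replicate 1 and 3.11 in replicate 2. The intervals of the 3 libraries overlapped.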

How the results depend on the processing

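Values are given in the order WT, then replicates 1 and 2 of *Mov10* Deletion. Of 54 alternative values, 25 stayed within the counting interval of the reported value (or, for counts of genes, within 1.5 times it) and 29 moved. Keeping scores of at least 5 gave a miR-181 share of target clusters of 2.03%, 2.67% and 2.29%, a share in the last 1000 nt of 33.3%, 22.6% and 25.3%, a share on enriched AGO2 of 26.7%, 15.5% and 17.2%, gene counts of 146, 257 and 91, and recurrence of WT clusters of 44.2%. Clusters of a single miRNA family gave a miR-181 share of 1.92%, 2.92% and 2.7%. The last 2000 nt held 41.4%, 27.6% and 25.8%. For the shares at gene ends and on enriched AGO2, those of all target clusters under the alternatives are not given here. A −log10 p of at least 5 moved the enriched share only in replicate 1, to 9.56%. A 6-nt match to nucleotides 2 to 7 was held by 81.8%, 75% and 74.8% of the target genes, and the 7-nt match by 67.8%, 63.0% and 56.9% of genes whose cluster lay at the gene end. WT had the highest share at gene ends, on enriched AGO2 and for seed matches in each of these, but its interval overlapped those of *Mov10* Deletion for the first pair at scores of at least 5 and for seed matches in both alternatives. The miR-181 share of WT lay apart from that of replicate 2 only among clusters of a single miRNA family.

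Leaving out a *Mov10* Deletion replicate gave a recurrence of WT clusters of 16.6% to 34.2% and 96 to 196 genes common to the libraries kept. The lower recurrence was without replicate 1 and the higher gene count without replicate 2. WT cannot be left out. No paired analysis was possible because the groups share only 1 replicate number and no result comes from a test.

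Chosen after seeing the data, scores of at least 5 gave a miR-181a share of 94.5%, 64.3% and 73.7%, clusters of miR-181 alone moved it within its interval, and dropping the 20 nt of slack gave a match at 40.4%, 25.7% and 23.1% of clusters near gene ends. Depth is unknown, so intervals on low shares and small gene lists leave out any difference in depth between libraries.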
